A study of Danio rerio with 20 samples.

Results

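The mitochondrial ribosome is built from mitochondrially encoded ribosomal RNAs and from proteins that are encoded in the nucleus, made in the cytosol and imported. Its small subunit decodes the mitochondrial mRNAs and its large subunit forms the peptide bonds, and together they make the core subunits of the respiratory chain and of the ATP synthase. In the zebrafish egg the mRNAs for these proteins are loaded by the mother, and the embryo later replaces maternal mRNAs with its own during the maternal-to-zygotic transition. The genes described here are the 72 entries, of 32105 named entries in the deposited table, whose gene name begins with mrps or mrpl followed by a number. They comprise 28 small-subunit symbols and 44 large-subunit symbols, and no symbol stood on more than 1 entry. The name does not settle every protein's place: the human proteins of mrps18a and mrps30 sit in the large subunit, and the entry mrps36 is listed as kgd4, a subunit of the oxoglutarate dehydrogenase complex, in the reference name table. In the other direction, 4 entries written in capitals (MRPL49, MRPL52, MRPL55 and MRPS12) fall outside the naming rule and are described apart.

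Wild-type zebrafish embryos of the AB strain received, at the 1-cell stage, either control morpholino (ConMO) or translation-blocking morpholino directed at TUT4 (TUT4MO), at TUT7 (TUT7MO) or at both (TUT47MO), and were sampled whole. TUT4 and TUT7 are terminal uridylyltransferases, enzymes that add uridines to the ends of RNAs. A translation-blocking morpholino need not change the level of its target mRNA, so the libraries hold no direct check of the knockdown. The 20 libraries of ribosomal-RNA-depleted total RNA form 3 sets, which the series text calls independent: in rs1a each of the 4 morpholinos was sampled 2, 4 and 6 hours after fertilization (hpf), while the others hold only ConMO and TUT47MO, sampled 3 and 6 hpf for rs1b and 3 and 5 hpf for rs2. Early means 2 or 3 hpf and late means 5 or 6 hpf, with 1 library per set, morpholino and hour, so that ConMO and TUT47MO each have 3 early and 3 late libraries. The labels give neither the number of embryos nor the clutches in a library, so p-values measure the spread between libraries. In whole embryos, fewer cells that carry an mRNA and less of the mRNA per cell cannot be told apart.

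The libraries held 1.191e+07 to 3.279e+07 reads, recovered from the deposited values. A single entry, AC024175.4, which the files do not annotate further, took 0.983% to 47.4% of them, and at least 40.7% in the 4 libraries of rs1a at 6 hpf and in TUT7MO and TUT47MO at 4 hpf. Levels are given in CPM, the reads of a gene as a share of the library's reads after scaling by the trimmed mean of M values (TMM), and they are not corrected for transcript length, so they are compared between libraries and not between genes. Changes are differences on the log2(CPM + 1) scale, which understates the change of low genes. A gene is called higher or lower where limma gave a Benjamini-Hochberg adjusted p below 0.05 over all genes tested. All 72 genes had reads in every library and passed the filter on low counts in every comparison. The smallest count of a member in any library was 10 reads, for mrpl33 in TUT7MO at 6 hpf.

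As a sum over the 72 genes, the mRNAs made up less of the library at later hours. The summed level in ConMO was 1691, 1662 and 1395 CPM in the early libraries of rs1a, rs1b and rs2, and 1115, 1208 and 1044 CPM in the late ones. In TUT47MO it was 1839, 1755 and 1422 CPM early and 952, 1100 and 1121 CPM late. At the TMM scaling the late sum lay below the early sum of its own set in all 6 courses. In rs2 this direction depended on the scaling. The deposited factors there are higher for the late libraries than for the early ones, by more than the members' reads fell. Sums at the deposited scaling are not given. The mean of the late sums was 1122.3 ± 82.0 CPM for ConMO and, for TUT47MO, 1057.9 ± 92.1 CPM (SD, n = 3 each). The difference was smaller than either SD, and these SDs also hold the differences between sets and hours. Within its own set the late TUT47MO sum lay below that of ConMO in rs1a and rs1b and above it in rs2.

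**Figure D1:**
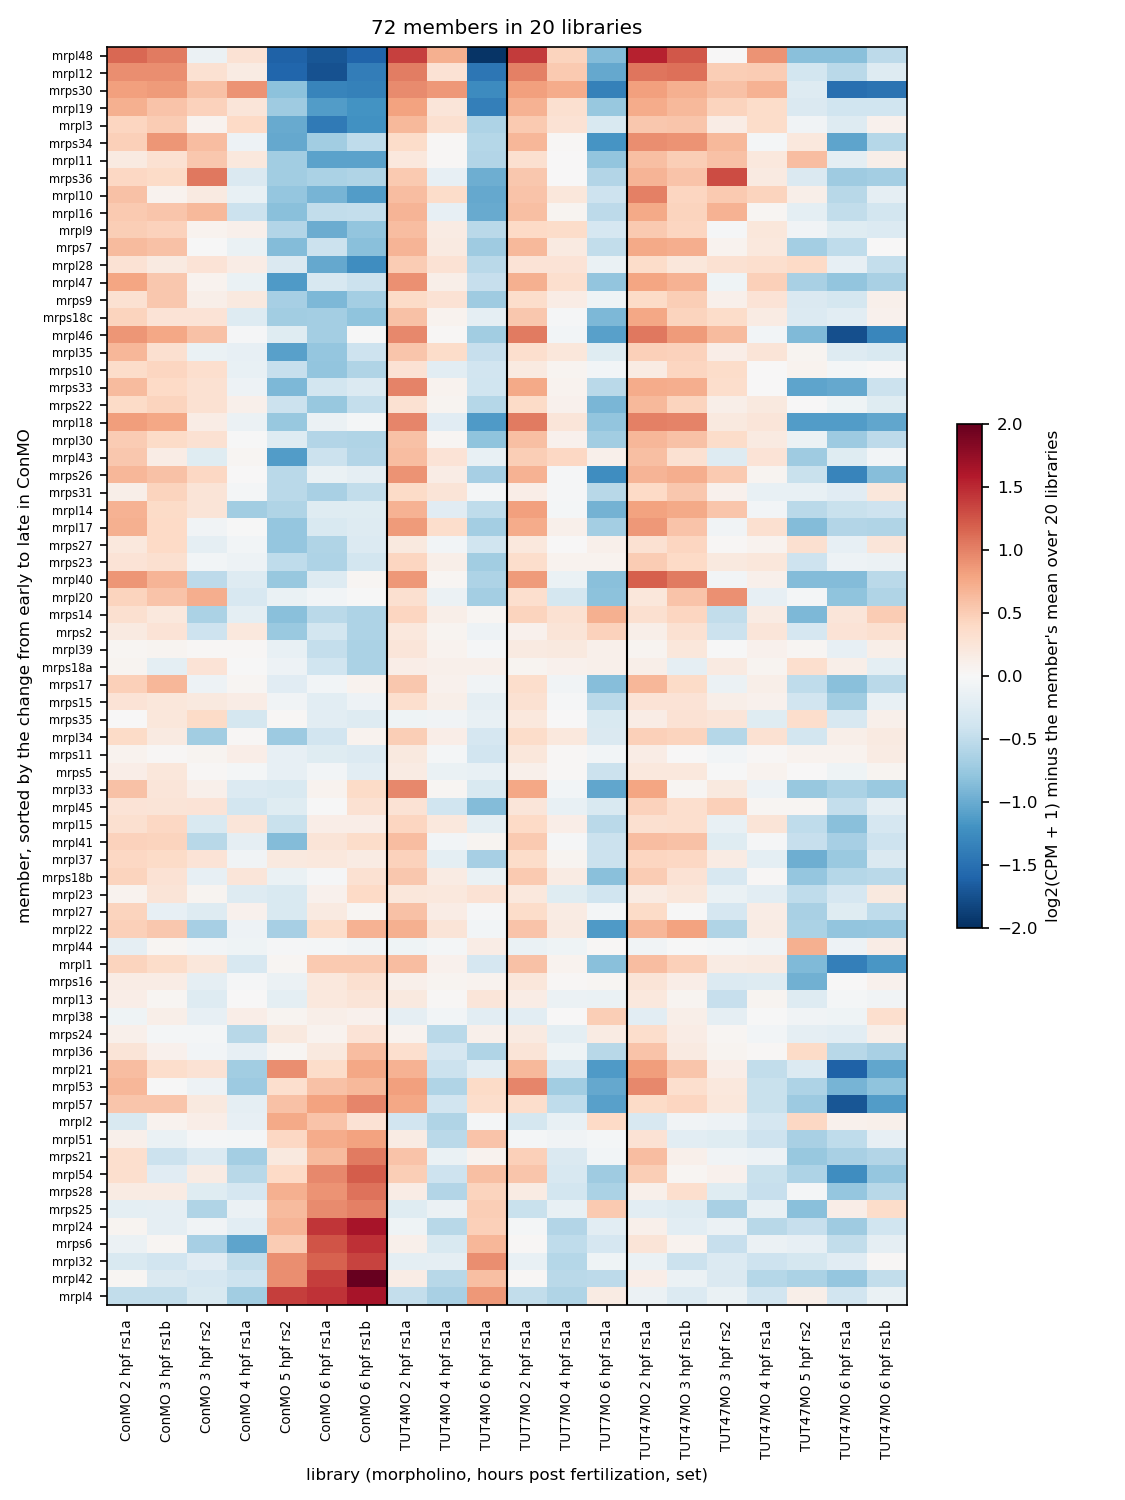
Level of each of the 72 genes (rows, sorted by their change from early to late in ConMO) in each of the 20 libraries (columns, grouped by morpholino and sorted by hour), as log2(CPM + 1) minus the gene's mean over the 20 libraries. The upper rows are high early and low late in every morpholino, and the lowest rows are high in the 3 late ConMO libraries and in TUT4MO at 6 hpf and mostly not in late TUT7MO or TUT47MO.

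In control embryos 37 of the 72 mRNAs fell from early to late and 11 rose. That is 51.4% lower against a background of 37.2% of the 17022 genes tested, and 15.3% higher against 36.3%. The median change of the members was -0.42, and that of all genes tested -0.05. Members ranged from -2.33 for mrpl48 to 1.93 for mrpl4, with 18 called at least 2-fold lower (background 22.8%) and 6 called at least 2-fold higher (background 24.9%). The late libraries lay below all early ones for 36 members (background 34.1%) and above them for 11 (background 33.5%). Small-subunit symbols gave 17 lower and 4 higher of 28, and large-subunit symbols 20 lower and 7 higher of 44. By the list used here 45 members have a bacterial counterpart, of which 22 fell and 7 rose. Of the other 27, among which that list places mrpl47 and mrps36, 15 fell and 4 rose.

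Among the mRNAs that fell, mrpl12 (ENSDARG00000038768) encodes the protein of the flexible stalk to which translation factors bind. Its level was 67.1, 66.8 and 43.1 CPM in the early ConMO libraries of rs1a, rs1b and rs2, and 9.69, 12.7 and 10.9 CPM in the late ones, with no overlap (log2 change -2.29, SE 0.19, limma adjusted p = 3.21e-05). The mRNA of mrpl48 (ENSDARG00000035167), which in mammals is a protein of the central protuberance of the large subunit, went from 30.9, 28.3 and 12.1 CPM to 3.37, 3.70 and 3.68 CPM (-2.33, SE 0.29, limma adjusted p = 0.000238). The early values of mrpl48 differed 2-fold or more between rs2 and the other sets, while its late values were nearly equal. For mrps30 (ENSDARG00000104111) the levels were 71.6, 73.0 and 60.8 CPM early and 15.5, 15.2 and 22.3 CPM late (-1.91, SE 0.19, limma adjusted p = 7.82e-05). The large-subunit gene mrpl19 went from 82.3, 74.4 and 69.1 CPM to 22.5, 21.3 and 30.3 CPM (-1.58, SE 0.17, limma adjusted p = 0.000116).

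Among the mRNAs that rose, mrpl4 (ENSDARG00000058824) encodes a large-subunit protein whose bacterial counterpart lines the exit tunnel. Its early ConMO levels were 3.46, 3.47 and 4.09 CPM, and its late levels 16.3, 18.8 and 15.4 CPM (1.93, SE 0.20, limma adjusted p = 0.000101). For mrpl32 (ENSDARG00000060489), whose protein is cut by the m-AAA protease before assembly in yeast and mammals, the levels were 5.72, 5.40 and 6.09 CPM early and 17.8, 20.3 and 14.9 CPM late (1.46, SE 0.20, limma adjusted p = 0.000407). The small-subunit gene mrps6 went from 12.2, 13.7 and 8.02 CPM to 33.2, 38.4 and 19.3 CPM (1.32, SE 0.16, limma adjusted p = 0.000233). The gene mrpl24, whose bacterial counterpart stands at the exit of the tunnel, went from 6.23, 5.20 and 5.67 CPM to 17.8, 21.0 and 10.2 CPM (1.31, SE 0.25, limma adjusted p = 0.00195). In all 4 the late libraries lay above every early one, and the rs2 library, taken at 5 hpf, was the lowest of the late ones. The counts moved with the scaling of the libraries. At the deposited scaling, whose library factors spread from 0.3815 to 2.032 in rs2, 0 members were called higher and 2 lower in ConMO. For rs1b the factor is 1, so its counts entered that run with no correction for library size. The ConMO libraries of rs1b held 1.83e+07 reads early and 1.19e+07 late, and the part of this in the lost calls was not tested. The median at the deposited scaling was -0.69 for the members and -0.27 for all genes. The share of all genes called is not given.

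The 3 mrps18 genes encode homologues of 1 bacterial small-subunit protein. In ConMO mrps18c fell (-1.06, SE 0.18, limma adjusted p = 0.00125) and so did mrps18a by less (-0.42, SE 0.15, limma adjusted p = 0.0365), while mrps18b was not called (-0.14, SE 0.16, limma adjusted p = 0.450). The call for mrps18a was lost under 6 of the alternatives, among them without rs1a (limma adjusted p = 0.24) and without rs1b (0.11). For mrps18b the sign turned under 3 alternatives. Of the genes linked to human mitochondrial disease, mrps22 fell (-0.93, SE 0.16, limma adjusted p = 0.00121) and mrpl3 fell (-1.55, SE 0.18, limma adjusted p = 0.000177). The values of mrps16 (0.10, SE 0.16) and mrpl44 (0.02, SE 0.14), the latter an RNase III-fold protein, were not called, and their signs turned at the deposited scaling. Neither was mrpl45 called (-0.26, SE 0.21), whose human protein anchors the ribosome to the inner membrane by the exit tunnel.

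**Figure D2:**
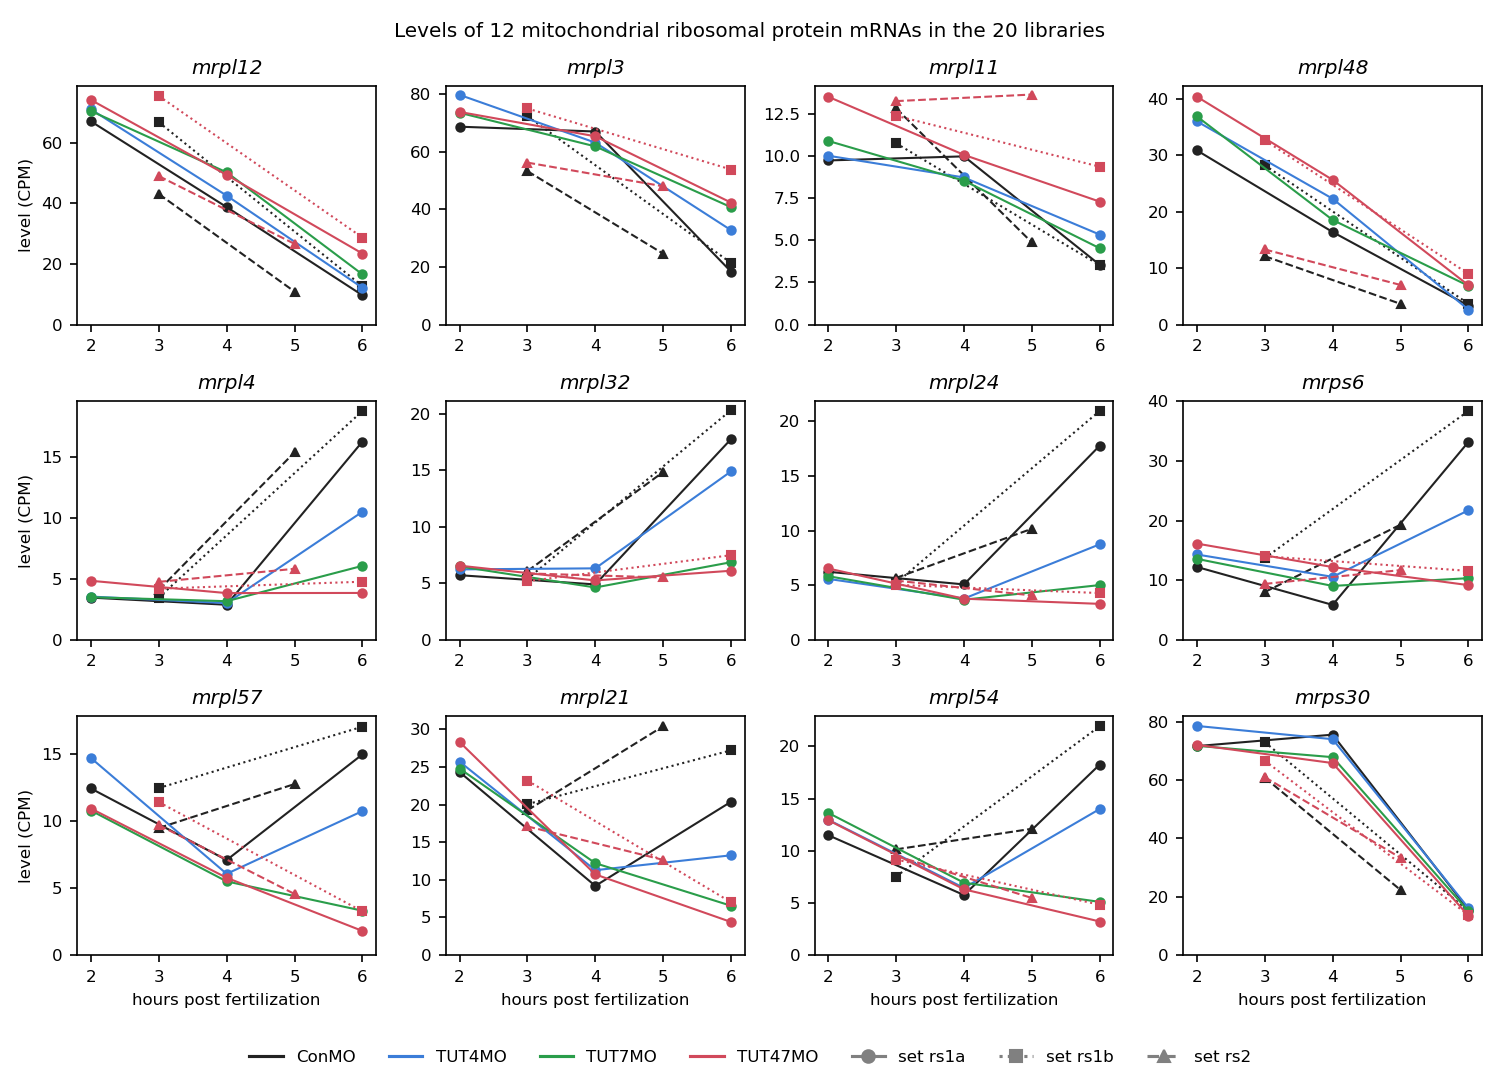
Level (CPM, linear axis starting at 0) of 12 of the genes against hours post fertilization; each point is 1 library, colours mark the morpholino, and marker and line style mark the set. In mrpl12, mrpl3 and mrpl48 all lines fall; in mrpl4, mrpl32, mrpl24 and mrps6 the black ConMO lines and the blue TUT4MO line rise after 4 hpf and the green TUT7MO and red TUT47MO lines do not reach them; in mrps30 the lines lie close together except at 5 hpf.

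The rs1a set shows the steps between 2 and 6 hpf. Between 2 and 4 hpf 52 of the 72 mRNAs fell and 1 rose, with morpholino as a block over the 8 libraries. That is 72.2% lower against a background of 18.4% of 15764 genes, and 1.39% higher against 21.2%. The median of the members was -0.46 and that of all genes 0.02. This comparison was added after its values had been seen, and it rests on 1 set with 1 library per morpholino and hour. Its p-values measure how the step differed between the 4 morpholinos of that set, not between repeats of 1 condition. The number lower was between 48 and 67 under all 15 alternatives run for it. The share of all genes called in those runs is not given, so a shift of the members cannot be told there from one of all genes. The median change was -0.48 in ConMO, -0.45 in TUT4MO, -0.36 in TUT7MO and -0.44 in TUT47MO. The high share of AC024175.4 at 4 hpf was in TUT7MO and TUT47MO, and its part in these values was not tested on its own.

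The largest falls between 2 and 4 hpf were in the large subunit. The level of mrpl53 (ENSDARG00000008920), a protein without a bacterial counterpart, went from 5.36, 6.04, 6.86 and 6.74 CPM at 2 hpf (ConMO, TUT4MO, TUT7MO and TUT47MO) to 1.41, 1.63, 1.47 and 1.95 CPM at 4 hpf (-1.47, SE 0.10, limma adjusted p = 3.37e-06). For mrpl21 (ENSDARG00000003846) the levels were 24.3, 25.7, 24.8 and 28.3 CPM and then 9.19, 11.3, 12.2 and 10.7 CPM (-1.18, SE 0.08, limma adjusted p = 2.87e-06). In both genes every 4 hpf library lay below every 2 hpf library. The central protuberance gene mrpl40 (-1.01, SE 0.08), and mrpl14 (-1.01, SE 0.10), whose human protein binds the silencing factor MALSU1, fell as well (limma adjusted p = 1.07e-05 and 3.96e-05). The member that rose was mrpl38, at 0.19. The gene mrps30 was not called between 2 and 4 hpf, at -0.05 (SE 0.05, limma adjusted p = 0.443). Its level in ConMO was 71.6 CPM at 2 hpf, 75.5 CPM at 4 hpf and 15.5 CPM at 6 hpf.

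The counts before and after 4 hpf are given for each morpholino. Counting a step of at least 0.5 on the log2 scale, 34 of the 72 mRNAs were lower at 4 than at 2 hpf in ConMO, 30 in TUT4MO, 26 in TUT7MO and 31 in TUT47MO, against 5.39% to 7.03% of all genes. At 6 hpf 16 were higher than at 4 hpf by that much in ConMO, 13 in TUT4MO, 3 in TUT7MO and 0 in TUT47MO, where the share of all genes was 33.4%, 29.4%, 24% and 18.7%. A step down and then up by that size was found for 9 genes in ConMO (mrpl1, mrpl21, mrpl53, mrpl54, mrpl57, mrps6, mrps21, mrps24 and mrps28), 7 in TUT4MO, 0 in TUT7MO and 0 in TUT47MO. The share of all genes with such a dip was 1.41%, 0.769%, 0.42% and 0.664%. Between 4 and 6 hpf 20 of the 72 fell by that step in ConMO, 25 in TUT4MO, 33 in TUT7MO and 38 in TUT47MO. The share of all genes that fell then was 34.3%, 29.8%, 21.9% and 18.3% in the same order. In mrpl21 the level at 6 hpf was 20.4 CPM in ConMO, 13.3 CPM in TUT4MO, 6.55 CPM in TUT7MO and 4.39 CPM in TUT47MO. In mrps28, the mitochondrial relative of a bacterial small-subunit protein that binds mRNA, it was 32.9, 23.7, 10.8 and 9.65 CPM in the same order, from 13.4, 11.1, 13.1 and 12.3 CPM at 4 hpf. These steps were counted after their values had been seen, come from 1 library each and carry no test.

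Late TUT47MO embryos differed from late ConMO embryos in both directions: 22 of the 72 mRNAs were higher and 27 lower. The background was 34.7% higher and 29.4% lower of 18075 genes, and the members' 30.6% and 37.5% lie near it. The median of the members was -0.22 and that of all genes 0.09. Values ran from -2.15 to 1.18, with 3 members called at least 2-fold higher (background 14.7%) and 14 at least 2-fold lower (background 15.8%). The TUT47MO libraries lay above all ConMO libraries for 16 members (background 25.9%) and below all for 20 (background 22.4%). Within the pairs the members' median was -0.28 (rs1a, 6 hpf), -0.17 (rs1b, 6 hpf) and 0.09 (rs2, 5 hpf). That of all genes was 0.095, 0.155 and 0.031 in the same order. The sign was the same in all 3 pairs for 53 members, and the share of all genes for which it was is not given. Small-subunit symbols gave 10 higher and 8 lower of 28, large-subunit symbols 12 and 19 of 44. The split moved with the scaling, to 15 higher and 34 lower by median-of-ratios, 14 and 35 by DESeq2, 16 and 33 without the mitochondrially encoded genes, and 19 and 13 at the deposited scaling, where the median was 0.12 for the members and 0.32 for all genes. Leaving out rs1a gave 10 higher and 17 lower, leaving out rs1b 12 and 17, and the fit with no block 11 and 19. The deposited scaling made no correction for library size in rs1b. The share of all genes called under these alternatives is not given, so a shift of the members cannot be told from one of all genes.

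**Figure D3:**
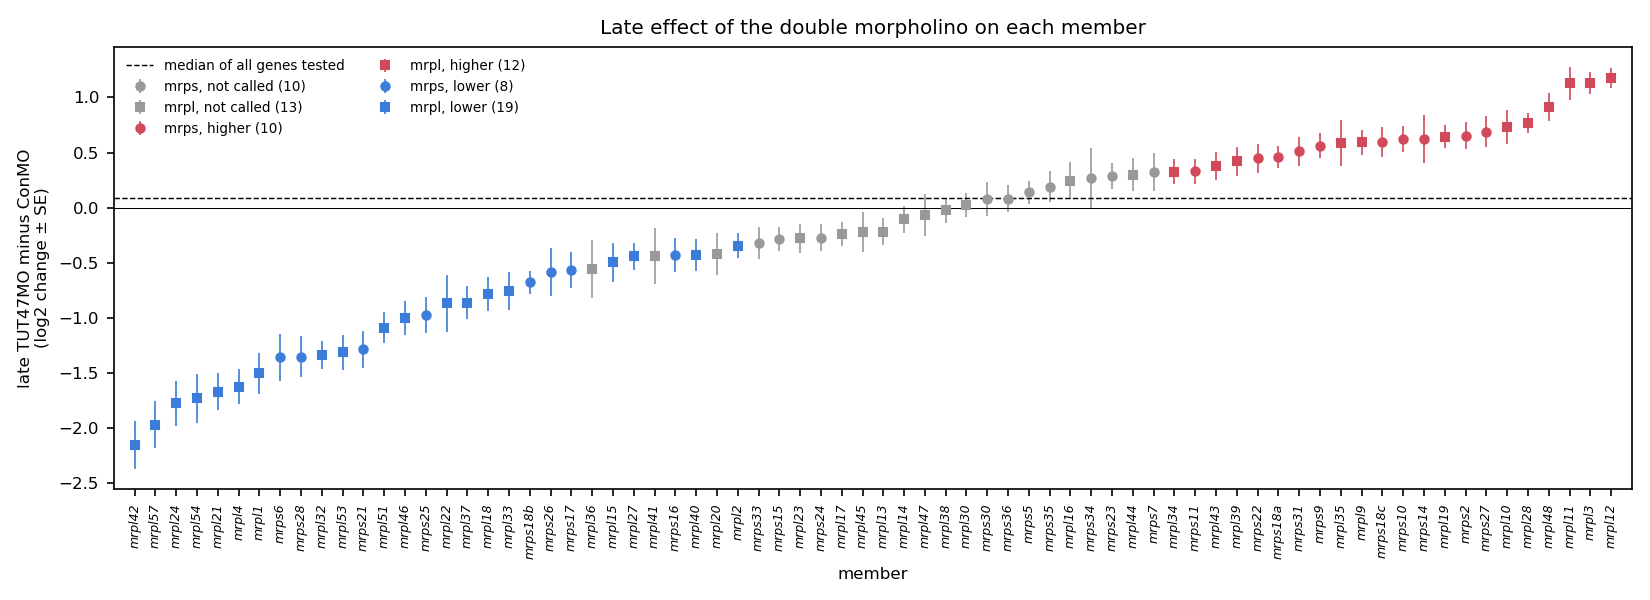
Late TUT47MO minus late ConMO log2 change of each of the 72 genes, sorted, with bars of 1 SE from the limma fit; circles are small-subunit symbols, squares large-subunit symbols, and colour marks the call. The 27 lower and 22 higher genes stand at the ends, and 14 lower and 3 higher genes pass a 2-fold change.

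The members furthest above control were 5 large-subunit genes. For mrpl12 the late levels were 23.5, 28.8 and 26.7 CPM in TUT47MO (rs1a, rs1b, rs2), against 9.69, 12.7 and 10.9 CPM in ConMO (1.18, SE 0.09, limma adjusted p = 4.05e-05). For mrpl3 (ENSDARG00000103318), a core protein of the large subunit, they were 42.4, 53.9 and 48.0 CPM against 18.4, 21.4 and 24.6 CPM (1.13, SE 0.10, limma adjusted p = 6.86e-05). For mrpl11, which in bacteria forms the base of the stalk, they were 7.30, 9.37 and 13.7 CPM against 3.55, 3.52 and 4.88 CPM (1.13, SE 0.15, limma adjusted p = 0.000359). In these genes every TUT47MO library lay above every ConMO library, and the late TUT47MO level of mrpl12 and mrpl3 was still below the early one in each set. The gene mrpl10, which encodes the protein that joins the stalk to its base, was also higher, at 0.73. The values were 6.98, 9.0 and 7.03 CPM against 3.37, 3.70 and 3.68 CPM for mrpl48 (0.91, SE 0.13, limma adjusted p = 0.000470), whose call was lost without the block (limma adjusted p = 0.082). For mrpl28 they were 34.0, 27.2 and 50.8 CPM against 18.3, 15.6 and 31.2 CPM (0.77, SE 0.09, limma adjusted p = 0.000251), higher in all 3 pairs, with an overlap of the groups through the rs2 control.

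The members furthest below control, among those with a mean of at least 5 CPM, were also large-subunit genes. The gene mrpl57 (ENSDARG00000007285), without a bacterial counterpart, was at 1.80, 3.27 and 4.57 CPM in late TUT47MO and at 15.0, 17.1 and 12.8 CPM in late ConMO (-1.97, SE 0.22, limma adjusted p = 0.000156). For mrpl24 the levels were 3.30, 4.28 and 4.07 CPM against 17.8, 21.0 and 10.2 CPM (-1.77, SE 0.20, limma adjusted p = 0.000192). For mrpl54 they were 3.22, 4.82 and 5.47 CPM against 18.3, 21.9 and 12.1 CPM (-1.73, SE 0.22, limma adjusted p = 0.000332). All 3 genes were below control in every pair, by the least in rs2.

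The same order held for the next pair of genes. For mrpl21 the late levels were 4.39, 7.01 and 12.7 CPM in TUT47MO against 20.4, 27.2 and 30.4 CPM in ConMO (-1.67, SE 0.17, limma adjusted p = 0.000109). For mrpl4 they were 3.84, 4.77 and 5.82 CPM against 16.3, 18.8 and 15.4 CPM (-1.62, SE 0.16, limma adjusted p = 9.07e-05). The early TUT47MO levels of mrpl4 were 4.84, 4.20 and 4.75 CPM, so that its late TUT47MO libraries stood near its early ones. The lowest member of all, mrpl42, had a mean under 5 CPM and was picked out after its values were seen; it stood at 1.41, 1.93 and 1.66 CPM against 9.75, 18.6 and 6.81 CPM (-2.15, SE 0.22, limma adjusted p = 0.000106).

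The genes chosen for their roles lay across this range. Of the mrps18 genes, mrps18c (0.60, SE 0.14, limma adjusted p = 0.00609) and mrps18a (0.46, SE 0.10, limma adjusted p = 0.00398) were higher in late TUT47MO and mrps18b was lower (-0.68, SE 0.10, limma adjusted p = 0.000825). The levels of mrps18b were 26.1, 26.8 and 22.4 CPM against 38.5, 48.7 and 35.5 CPM, with no overlap. The call of mrps18b was lost at the deposited scaling (limma adjusted p = 0.41), that of mrps18c without rs1a (0.051) or rs1b (0.086), and that of mrps18a without rs1a (0.066). The gene mrps22 was higher (0.45, SE 0.13, limma adjusted p = 0.0176) and mrps16 lower (-0.43, SE 0.15, limma adjusted p = 0.0377), and both calls were lost in 8 of the alternatives. For mrps30 the change was 0.08 (SE 0.15, limma adjusted p = 0.671) and for mrpl44 0.30 (SE 0.15, limma adjusted p = 0.112). In both, the rs2 pair stood apart: mrps30 was at 33.3 CPM in TUT47MO and 22.3 CPM in ConMO there, and mrpl44 at 69.5 and 41.2 CPM, while in rs1a mrps30 was at 13.5 and 15.5 CPM and mrpl44 at 39.1 and 40.7 CPM. The value for mrpl45 was -0.22 (SE 0.18, limma adjusted p = 0.304).

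Stage markers moved with the same groups. The maternal marker btg4 had 374 ± 73.5 CPM in early ConMO, which fell to 17.6 ± 13.8 CPM late, while late TUT47MO libraries held 75.4 ± 21.7 CPM (SD, n = 3 each). The zygotic marker krt4, an early epidermal keratin, was at 0.365 ± 0.00924, 1723 ± 391 and 264 ± 62.7 CPM in the same order. All 4 maternal markers (btg4, buc, mos and zar1) fell in ConMO and were higher in late TUT47MO, and all 4 zygotic markers (krt4, ta, apoeb and sox32) rose in ConMO and were lower in late TUT47MO. The part of this in the members' values was not tested. Set beside the younger ConMO library at 4 hpf of rs1a, the TUT47MO library at 6 hpf held less of 56 of the 72 mRNAs, with a median of -0.36, where 47.2% of all genes were lower.

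In early TUT47MO embryos no member was called. Early and late effects came from 1 fit of 12 libraries with a shared estimate of the spread, so each gene had the same SE in both. The spread of the late pairs thus enters the early p-values, and that of the early pairs the late ones. By limma 0 members were called higher and 0 lower (background 0% and 0%), with 2 at an unadjusted p below 0.05, and edgeR and DESeq2 called 0 as well. By pair, 60, 51 and 40 of the 72 members lay above 0 in rs1a, rs1b and rs2. The share of all genes above 0 was 54%, 47.2% and 46.5%, and these shares carry no test. In the fit the median of all genes was 0.00, and their middle 50% ran from -0.05 to 0.06. The members' values ran from -0.12 to 0.38 with a median of 0.07. The largest was mrpl40, at 19.7, 17.6 and 7.71 CPM in TUT47MO and 15.6, 13.4 and 5.30 CPM in ConMO (0.38, SE 0.15), above control in all 3 pairs. Its limma adjusted p was 1. The changes of mrps21 (0.34), mrpl14 (0.25) and mrps36 (0.24) were above 0 in all 3 pairs too, each with a limma adjusted p of 1.

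The late effect exceeded the early effect for 12 members and lay below it for 21, by the limma test of their difference (background 26.3% and 23.3%). This difference is also that between the courses of TUT47MO and of ConMO, which share no library. In ConMO 22 of the 72 changes from early to late were above 0, or 30.6% against 48.8% of all genes. Of the 72, 6 were at least 1 in ConMO, or 8.33% against 23.9% of all genes. In TUT47MO 9 were above 0, or 12.5% against 55% of all genes. There 0 were at least 1, against 9.67% of all genes, and the highest was 0.36, for mrpl2. The lowest values were -2.33 in ConMO and -2.16 in TUT47MO. In ConMO 18 members lay at -1 or below, or 25% against 21.5% of all genes, and in TUT47MO 22, or 30.6% against 5.47%. These shares are a description, with no test. The SD over members was 0.88 in ConMO and 0.57 in TUT47MO, and that over all genes 1.69 and 0.96. The largest differences upward were in mrpl3 (1.05, SE 0.15, limma adjusted p = 0.00105), mrpl12 (1.01, SE 0.13, limma adjusted p = 0.000838) and mrpl11 (0.91, SE 0.21, limma adjusted p = 0.00889). The largest differences downward were in mrpl42 (-2.26, SE 0.31, limma adjusted p = 0.00101), mrpl4 (-1.89, SE 0.22, limma adjusted p = 0.000644), mrpl57 (-1.88, SE 0.31, limma adjusted p = 0.00206) and mrpl54 (-1.84, SE 0.32, limma adjusted p = 0.00256). With the 4 hpf pair of rs1a counted as late, 0 members and 0 of all genes were called in either direction, without rs1a 3 members were higher and 7 lower, and without rs1b 2 and 11. The fit with no block gave 2 and 14, the deposited scaling 2 and 12, median-of-ratios 9 and 30, and DESeq2 9 and 31. For these last runs the share of all genes called is not given.

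**Figure D4:**
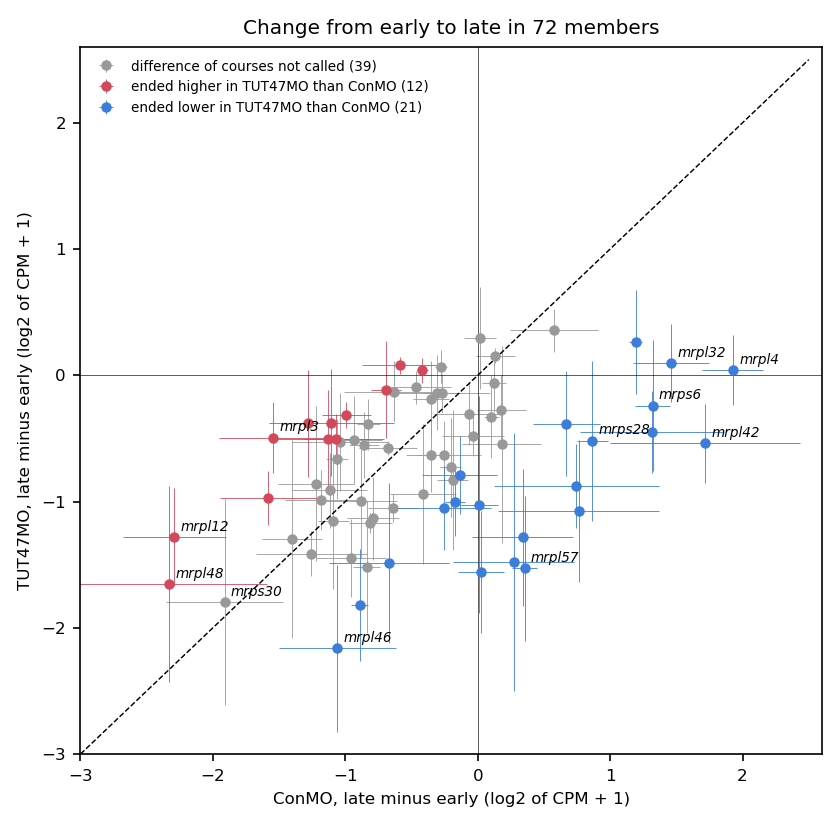
Change from early to late of each of the 72 genes in TUT47MO (vertical, log2) against that in ConMO (horizontal, log2); points are means over the 3 sets, bars are 1 SD, the dashed line marks equal change, and colour marks the limma call of the difference. The 21 blue genes lie below the line, many with a rise in ConMO and a change near or below 0 in TUT47MO, and the 12 red genes lie above it with a fall in ConMO.

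With a single morpholino, averaged over the 3 hours of rs1a, limma called 0 members in either direction for TUT4MO and 0 for TUT7MO (background 0% for both), with 2 members at an unadjusted p below 0.05 in each, and edgeR and DESeq2 called 0. That fit has 1 effect per morpholino for all hours, so a difference at 1 hour only enters its residual spread and can go uncalled. For mrpl4 in TUT7MO the differences from ConMO were 0.01, 0.10 and -1.29 at 2, 4 and 6 hpf, and the SE was 0.39. The hours are given apart as single libraries with no test. At 2 hpf the median difference from ConMO was 0.09 for TUT4MO and 0.03 for TUT7MO, and at 4 hpf 0.08 and 0.10. For all genes it was 0.02 and 0.01 at 2 hpf, and -0.001 and 0 at 4 hpf. At 6 hpf the members' median was -0.15 for TUT4MO, -0.26 for TUT7MO and -0.28 for TUT47MO, and that of all genes 0.003, 0.11 and 0.095. At that hour 1 member was at least 2-fold below ConMO in TUT4MO, 14 in TUT7MO and 16 in TUT47MO, and 0, 2 and 2 were at least 2-fold above it. The share of all genes was 5.11%, 15.4% and 18.1% below and 2.89%, 13.5% and 17.1% above. In mrpl4 the 6 hpf levels were 16.3 CPM in ConMO, 10.5 CPM in TUT4MO, 6.07 CPM in TUT7MO and 3.84 CPM in TUT47MO. In mrpl57 they were 15.0, 10.8, 3.32 and 1.80 CPM, and in mrpl3 18.4, 32.8, 40.8 and 42.4 CPM. In these 3 genes TUT4MO lay nearer to ConMO than TUT7MO or TUT47MO did, and TUT7MO lay nearer to TUT47MO. In mrpl3, though, the TUT4MO level itself was nearer to that of TUT47MO than to that of ConMO. These 3 genes and mrpl12 are among the members with the highest or lowest late TUT47MO change. The same ConMO and TUT47MO libraries enter that change, so the order of the levels is in part set by the choice of genes. In mrpl12 the levels stood in the same order, at 9.69, 12.2, 16.6 and 23.5 CPM, but in mrps18c they were 7.21, 10.7, 6.07 and 10.4 CPM, with TUT7MO the lowest.

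Of 10 mitoribosomal proteins named otherwise 2 were higher and 4 lower in late TUT47MO, or 20% and 40% against 34.7% and 29.4% of all genes. The higher ones were ptcd3 (1.27, SE 0.13, limma adjusted p = 0.000123), a pentatricopeptide repeat protein of the small subunit, and dap3 (0.47, SE 0.14, limma adjusted p = 0.0166), a GTP-binding small-subunit protein. The lower ones were MRPL55 (-0.95), MRPS12 (-0.92), MRPL52 (-0.76) and gadd45gip1 (-0.72). Between 2 and 4 hpf 7 of the 10 fell and 0 rose (background 18.4% and 21.2%).

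Other genes of the pathway are set beside all genes, of which 34.7% were higher and 29.4% lower in late TUT47MO, with a median of 0.09. Of 27 mitoribosome assembly factors 15 were higher, or 55.6%, and 5 lower, or 18.5% (median 0.66). In the ConMO course 18 of them fell and 3 rose (median -1.12), or 66.7% and 11.1% against 37.2% and 36.3% of all genes. The furthest above control was fastkd2, an RNA-binding protein needed for the mitochondrial large ribosomal RNA in mammals, with late levels of 5.69 CPM for ConMO and 25.3 CPM for TUT47MO (1.92, SE 0.22). The helicase gene DHX30 followed at 32.6 and 97.0 CPM. Of 16 mitochondrial translation factors 7 were higher, or 43.8%, and 2 lower, or 12.5% (median 0.36), with mtfmt, the formyltransferase for the initiator tRNA, at 1.27 and mtrf1l, a release factor, at -2.07. Of 28 genes for the expression and upkeep of mitochondrial DNA 12 were higher, or 42.9%, and 6 lower, or 21.4% (median 0.18), with POLRMT, the mitochondrial RNA polymerase, at 1.74. Of 23 import genes 6 were higher and 6 lower, or 26.1% each, and their median of -0.08 lay below that of all genes.

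Of the mRNAs of the 13 mitochondrially encoded proteins, which the mitochondrial ribosome makes, 0 were higher and 11 lower in late TUT47MO (median -0.61), and 12 rose and 0 fell in the ConMO course (median 0.62). The cytosolic ribosomal proteins moved together, with 84 of 86 lower and 0 higher in late TUT47MO (median -1.19), and 81 higher and 0 lower in the ConMO course (median 1.51). Of 84 nuclear subunits of oxidative phosphorylation 22 were higher and 25 lower in late TUT47MO (median 0.00), or 26.2% and 29.8%, below and near the shares of all genes. In the ConMO course 16 were higher and 33 lower (median -0.26), or 19.0% and 39.3% against 36.3% and 37.2% of all genes. Between 2 and 4 hpf 60 of the 84 were lower and 1 higher (median -0.43), or 71.4% and 1.19% against 18.4% and 21.2% of all genes, where 26 of 86 cytosolic ribosomal protein genes were lower and 7 higher (median -0.04) and 9 of the 13 mitochondrially encoded genes were higher and 0 lower (median 0.34). No test was made between these lists.

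**Figure D5:**
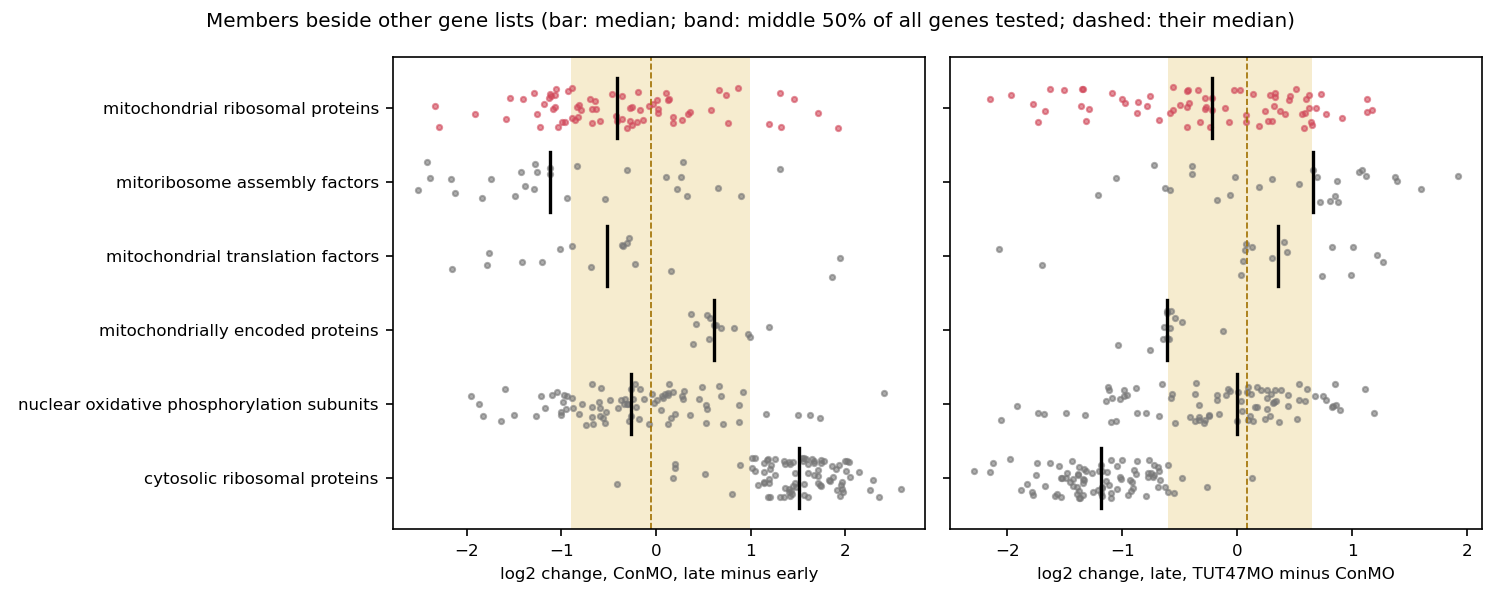
Log2 change of each gene (points) of 6 lists in the ConMO course (left) and in late TUT47MO against ConMO (right); black bars are list medians, the band spans the middle 50% of all genes tested and the dashed line is their median. The mitochondrial ribosomal proteins spread across and beyond the band with a median of -0.42 on the left and -0.22 on the right, while the cytosolic ribosomal proteins gather at 1.51 and -1.19.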

How the data were processed

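The authors deposited 1 table of estimated counts per gene for 20 libraries, made with STAR 2.5.3a and RSEM on GRCz10 per the submitters' processing notes. For rs1b these are estimated counts as such (factor 1); for the other sets the authors deposited a scaled signal, the counts times 1 factor per library (0.7498 to 1.274 in rs1a, 0.3815 to 2.032 in rs2). The labels mention ERCC spike-ins for normalization, but no source used here says where the factors come from. Dividing by the factor gave whole reads, within 0.02, for 84.06% to 90.59% of values up to 20 reads. Entries with no name or values, 555 of 32660 (1.7%), were left out. Reads were scaled by TMM over all 20 libraries (edgeR 4.0.16 in R 4.3.3), filtered with filterByExpr (minimum count 10) and tested with limma 3.58.1 (trend, two-sided) on log2(CPM + 1), with pair or set as a block. Estimated counts were rounded for edgeR and DESeq2 1.42.0, used as alternatives. The alternative without the mitochondrially encoded genes left these, and entries named AC024175, out of the scaling. TMM assumes that most genes do not change. In the ConMO course 36.3% of all genes were called higher and 37.2% lower, and in the late comparison 34.7% and 29.4%. These calls do not meet that assumption, so changes are relative to the scaling.

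The sets pair the libraries: the series text calls them independent experiments, and deviations from group means correlated at 0.453 to 0.93 within the 6 pairs. In simulated data limma recovered 96.0% of 200 genes changed 2-fold in the late comparison (17784 genes, 12 false calls). In the ConMO course it recovered 97.5% (17368 genes, 11 false calls). The simulated counts had 1 dispersion for all genes, no difference between sets or pairs, and changed genes only among those of at least 5 CPM. Far more genes were called in the data, so the simulation cannot show how well the scaling or the shared spread works there.

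Genes named with values are, with a mean of at least 5 CPM, the 5 highest and 5 lowest late TUT47MO changes, the 4 highest and 4 lowest ConMO changes and the 4 smallest early p-values, plus genes fixed for their roles (the mrps18 genes, mrps16, mrps22, mrps30, mrpl3, mrpl12, mrpl44, mrpl45 and mrps12, which is listed as MRPS12). Others (mrpl42, mrpl53, mrpl38, mrpl10, mrpl2, mrps28 and genes of the other lists) were named after their values were seen. Members and lists were chosen with earlier results of these data known. The symbols of 70 members were found in the reference name table, 69 unchanged. Kinases of the rps6k group and rps19bp symbols were kept out of the cytosolic list.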

Additional observations from a re-analysis of the deposited data

Results flagged for a closer look

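The results below are those that passed the limma test of the difference between the late and the early TUT47MO effect. The threshold was an adjusted p below 0.05 over all genes (late minus early, log2). The late effect was higher than the early one for 12 members and lower for 21, or 16.7% and 29.2%. The shares of all genes were 26.3% and 23.3%, so passing this test does not by itself set a member apart. Upward, the differences of named genes were 1.05 for mrpl3, 1.01 for mrpl12, 0.91 for mrpl11, 0.73 for mrpl28 and 0.68 for mrpl48. Downward, they were -1.89 for mrpl4, -1.88 for mrpl57, -1.84 for mrpl54, -1.76 for mrpl24 and -1.75 for mrpl21. The genes listed in both directions were named for their high or low late TUT47MO change, and that change is part of the difference. Their differences thus largely repeat the values by which they were chosen and are not a separate result. No cause was tested.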

How the results depend on the processing

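Scaling moved the median change of all genes: in the late comparison from 0.09 to -0.05 (median-of-ratios) and 0.32 (deposited), in the ConMO course from -0.05 to 0.09 and -0.27, and between 2 and 4 hpf from 0.02 to -0.14 (deposited). Late members higher were 14 by DESeq2, 12 from the 6 late libraries alone and 11 with no replicate block (19 lower); with the 4 hpf pair counted as late they were 13 higher and 15 lower, and at the deposited scaling 13 lower. Leaving out 1 set in turn gave 10 to 21 higher and 17 to 34 lower. For late minus early the counts were 2 higher and 12 lower at the deposited scaling, 9 and 30 by median-of-ratios, 9 and 31 by DESeq2, 2 higher and 14 lower with no replicate block, 2 to 13 higher and 7 to 31 lower over sets left out, and 0 and 0 with the 4 hpf pair as late. The ConMO course gave 0 and 2 at the deposited scaling, which made no correction for library size in rs1b. Between 2 and 4 hpf the 1 higher member was not called (0) at the deposited scaling, by DESeq2 and over morpholinos left out (0 to 1). Counts in this paragraph stand without the share of all genes called in the same run, so a shift of the members cannot be told from one of all genes.

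Signs of values that were not called turned in these cases. Late mrps30 was -0.11 by median-of-ratios and by DESeq2, -0.03 without mitochondrially encoded genes and from -0.16 (without rs2, replicate 3) to 0.21 (without rs1a) over sets left out; mrps36 was -0.10, -0.11, -0.03 and, over sets left out, -0.08 to 0.16. Late mrpl14 was 0.23 and mrpl45 0.12 at the deposited scaling, and mrpl14 0.08 with the 4 hpf pair as late. In ConMO mrps18b was 0.04 by median-of-ratios, 0.01 by DESeq2 and -0.22 to 0.03 over sets left out (0.03 without rs1a); at the deposited scaling mrpl21 was -0.02, mrps16 -0.19 and mrpl44 -0.28, and mrpl44 was -0.04 without rs1a. Between 2 and 4 hpf mrpl44 was -0.14 at the deposited scaling. The cause was not tested in any of these. Late hours differ between sets (5 or 6 hpf), and the median member rested on 129 to 633 reads per library.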
